A study of Mus musculus with 158 samples.

Results

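Neurons of the hippocampal field CA3 were set against cortical neurons of the P series, all collected 1 cell at a time from acute brain slices with a patch pipette. The CA3 group was every slice neuron whose source region was given as hippocampus CA3, which made 5 cells with 1 library each. The cortical P group was every slice neuron from cortex whose title began with Sample_P, which made 16 cells and 19 libraries after 3 repeat libraries had been summed with the library of the same number. Together they were 24 of the 158 libraries of the series. All cells came from untreated mice of the C57/BL6/N strain. The labels give no animal, age or sex. They do not spell out the letter P either, which was taken here to stand for pyramidal and was checked against marker genes. The RNA of each cell went through 3 rounds of antisense RNA amplification, was made into stranded polyA libraries and was deposited as read counts per gene.

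CA3 pyramidal neurons are the large excitatory neurons of the hippocampus that receive the mossy fibres of the dentate gyrus on thorny excrescences and excite one another through recurrent collaterals. They belong to the archicortex, whereas the pyramidal neurons of the layered neocortex send their axons within the cortex, to the other hemisphere or to subcortical targets, according to their layer. Both kinds are glutamatergic and share the early transcription factors of dorsal telencephalic neurons. Field identity in the hippocampus and layer identity in the neocortex are marked by different transcription factors, receptors and adhesion molecules.

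No animal or slice was named in the labels. The cells of a group may share an animal, so a group was taken as 1 sample and nothing was tested, and no p-value is given. Levels are summed counts of a group per 1000000 of its counts (CPM), with exact Poisson 95% intervals. A gene was called detected in a cell when it had at least 5 counts after the cell had been thinned to 1000000 counts. Intervals cover counting error only, not the difference between cells or the PCR and amplification of the RNA. Log2 ratios are CA3 over cortical P after adding 1 CPM. A gene was called higher or lower in CA3 when 3 conditions held in the same direction. Both the ratio of summed CPM and that of CPM averaged over cells had to reach 2-fold, and the ratio of summed CPM had to stay past 2-fold with every CA3 cell left out in turn. Where a call is reported lost without a cell or in a subset, the whole rule was applied again to the cells kept. Without a CA3 cell this left out a further CA3 cell in turn, so a call could be lost at a ratio past 2-fold.

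The CA3 cells held 1958961 to 10079218 counts each and 27452025 in all, and the cortical P cells 2018232 to 16251918 each and 104846393 in all. From 1112 to 2769 genes were detected in a CA3 cell, against 313 to 6174 in a cortical P cell. Cortical P cells 14 and 27 stood apart, with 86.8% and 95.7% of their counts on 50 genes. Over genes, log2 CPM of a repeat library and its partner gave r between 0.969 and 0.994 in the 3 pairs, and r with libraries of other slice cells did not pass 0.553. Microglial RNA moved with the comparison. At least 3 of 12 microglia markers were detected in 9 of the 16 cortical P cells (cells 2, 4, 14, 16, 19, 21, 22, 32 and 33) and in 0 of the 5 CA3 cells. The summed level of the microglia markers ran from 0.610 to 417 CPM in CA3 cells and from 0.495 to 23490.0 CPM in cortical P cells. Results are therefore also given against the remaining 7 cortical P cells (1, 5, 15, 17, 20, 24 and 27). This set is not free of microglial RNA, as cell 15 held 4808 CPM of Aif1, a calcium-binding protein of microglia, and the markers summed to 1422 CPM in cell 17. It is also smaller and keeps cell 27. Genes detected ran from 313 to 3749 in these 7 cells and from 378 to 6174 in the 9 left out. Microglial RNA, number of cells and genes detected cannot be told apart in a shift between the 2 comparisons.

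Some markers of excitatory neurons were detected in both groups. Of 12 measured genes of that list 2 were called higher and 3 lower in CA3, with a median log2 ratio of -0.52. Over all measured genes the shares were 3.77% and 45.6%. From 5 to 7 of the list were detected in a CA3 cell and 0 to 11 in a cortical P cell, and 4 were detected in no CA3 cell. Slc17a7, the vesicular glutamate transporter of cortical and hippocampal pyramidal cells, was detected in 4 of 5 CA3 cells and 10 of 16 cortical P cells. Nrgn, the calmodulin-binding postsynaptic protein neurogranin, was detected in 4 of 5 CA3 cells and 13 of 16 cortical P cells, and Camk2a, a calmodulin kinase of excitatory synapses, in 5 of 5 and 8 of 16. None of these 3 genes was called. The transcripts of the GABA-synthesising enzymes Gad1 and Gad2 came to 5 counts and 1 count over all CA3 cells. The whole list of inhibitory neuron markers summed to 0 to 306 CPM per CA3 cell and 0 to 3856 CPM per cortical P cell. In cortical P cells Gad1 reached 605 CPM and Gad2 592 CPM in cell 22, and no other cell passed 6.81 and 2.96 CPM. The label was therefore not met by markers in every cortical P cell. Cell 22 held both kinds of transcripts, and in cells 21 and 27 the excitatory markers summed to 1.31 and 0 CPM. In cell 21 the general neuron markers summed to 23.5 CPM, with 1 of 20 detected. Its oligodendrocyte and microglia markers summed to 12752 and 11560 CPM. In cell 14 the general neuron markers summed to 930 CPM and the excitatory markers to 181 CPM. Of 20 general neuron markers 0 were called higher and 3 lower in CA3 (Syp, Nefh and Thy1), with a median log2 ratio of 0.06. Each of those 3 calls was lost without a single cortical P cell, the log2 ratio being 0.34 for Syp without cell 24, 0.68 for Nefh without cell 2 and -0.57 for Thy1 without cell 22.

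**Figure D1:**
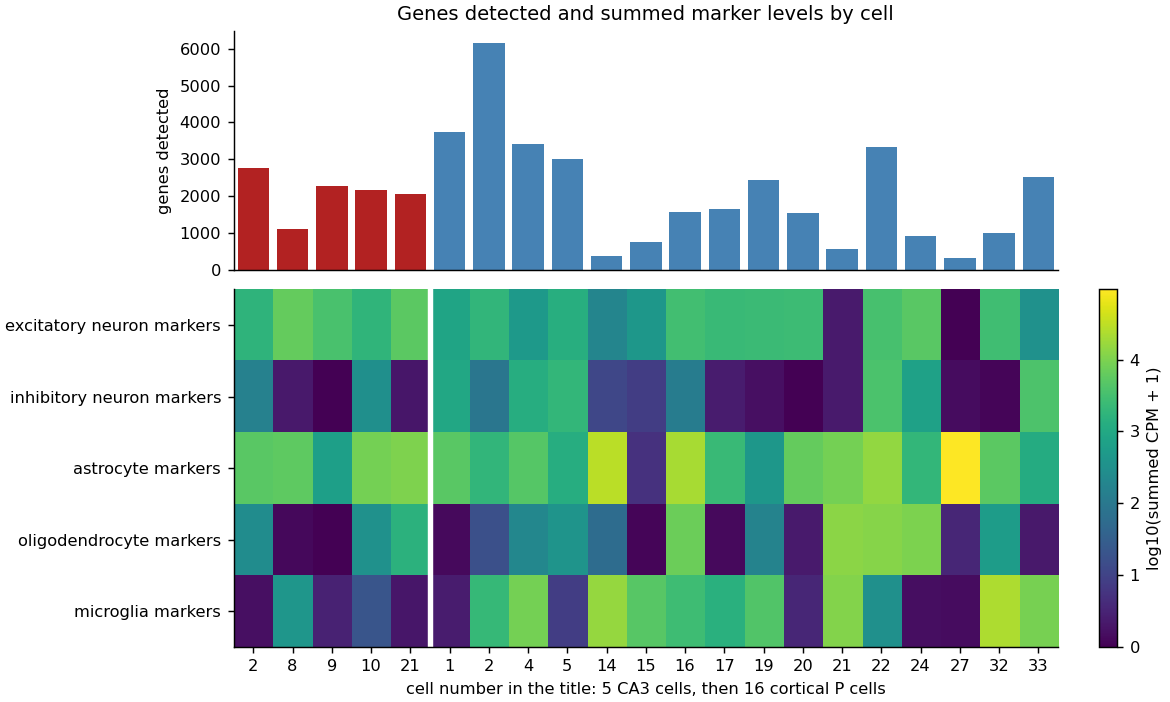
The upper bars give the genes detected in each cell at a depth of 1000000 counts, CA3 cells in red and cortical P cells in blue, and the lower map gives the summed level of each marker list on a log10(CPM + 1) scale. Microglia markers summed to 417 CPM in CA3 cell 8 and to at most 19.5 CPM in the other 4 CA3 cells, and to 321 CPM or more in 11 of the 16 cortical P cells.

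Of 10450 measured genes (at least 10 counts over both groups and a count in at least 3 cells), 394 were called higher in CA3 (3.77%) and 4764 lower (45.6%). The median log2 ratio of all measured genes was -1.19, and it was -0.88 with edgeR TMM scaling and -0.67 with DESeq2 size factors, so a gene's ratio is to be read against that shift. Of the calls, 7.64% were higher, against 32.7% when the mean of the cells' CPM alone was used (2455 higher, 5047 lower) and 27.8% with the summed CPM alone (2105 higher, 5468 lower). The numbers of cells were unequal, and a gene that few cells of either region express is more likely to have no count among 5 cells than among 16. Of the measured genes, 2053 had no count in any CA3 cell and 4 had none in any cortical P cell. The filter favours this outcome by itself. To be measured, a gene absent from cortical P cells needed a count in 3 of 5 CA3 cells. A gene absent from CA3 needed a count in 3 of 16 cortical P cells. Total counts and microglial RNA differed as well, and the part of the number of cells was not tested. Among the genes called lower, 1518 had no count in any CA3 cell and 3357 were detected in none. In the 2748 genes detected in at least 6 of the 21 cells, a set chosen after seeing the data, 171 were called higher (6.22%) and 966 lower (35.2%), with a median log2 ratio of -0.73. Against the 7 cortical P cells with fewer than 3 microglia markers, 825 genes were called higher (12.1% of 6839 measured) and 2263 lower (33.1%), and the median log2 ratio of all measured genes was -0.17. Counts of calls in a gene list are to be read against these shares, and a share of lower calls near 45.6% is no result about the list.

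**Figure D2:**
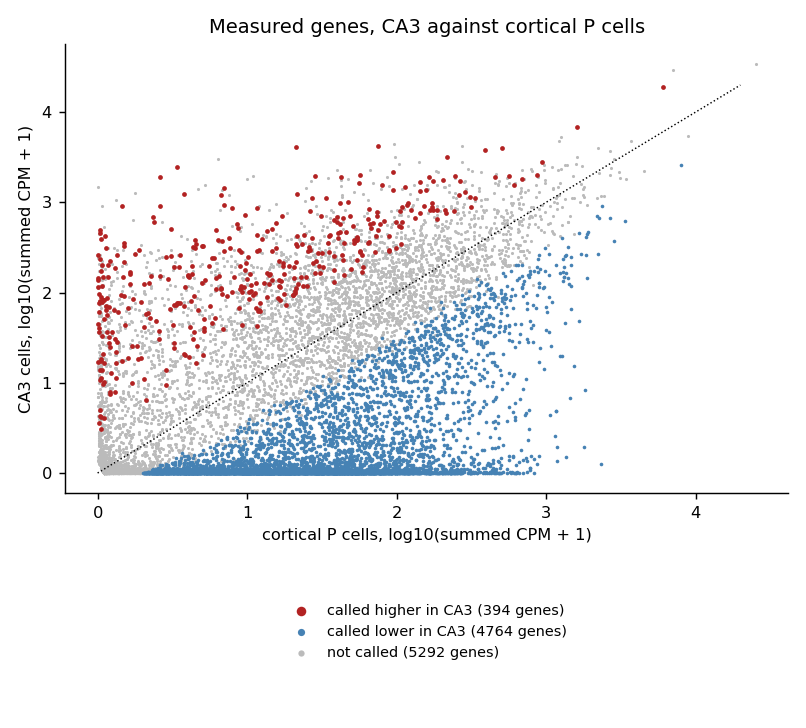
Each dot is a measured gene, with its summed level in CA3 cells on the vertical axis and in cortical P cells on the horizontal axis, both as log10(CPM + 1), and the dotted line marks equal levels. The 394 genes called higher in CA3 lie above the line, and the 4764 called lower lie below it, many of them at 0 in CA3.

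Zbtb20 and the NeuroD factors Neurod1, Neurod2 and Neurod6 were called higher in CA3. Zbtb20, a zinc finger repressor known for its part in hippocampal identity (chr16:42875689-43634392 in GRCm38), had 912, 2201, 1097, 30.4 and 254 CPM in CA3 cells 2, 8, 9, 10 and 21, against a lowest value of 0, a median of 0 and a highest of 395 CPM in cortical P cells. CA3 cells 2, 8 and 9 lay above every cortical P cell, and all 5 CA3 cells lay above 15 of the 16 cortical P cells, cell 22 being the exception and the next highest holding 5.62 CPM. Summed, Zbtb20 was at 1116 CPM in CA3 (interval 1103 to 1128) and 32.8 CPM in cortical P cells (31.7 to 33.9), a log2 ratio of 5.05 that was lowest, at 3.85, without CA3 cell 8. Without cortical P cell 22 the log2 ratio was 9.48. It was detected in 5 of 5 CA3 cells and 2 of 16 cortical P cells, and in CA1 slice neurons it stood at 328.6 CPM.

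The NeuroD factors, basic helix-loop-helix proteins of excitatory forebrain neurons, were higher as well. Neurod2 had 105, 5482, 279, 418 and 14.8 CPM in CA3 cells 2, 8, 9, 10 and 21, and from 0 through a median of 0.513 to 826 CPM in cortical P cells. All 5 CA3 cells were positive, and 12 cortical P cells lay below the lowest of them. The log2 ratio of 4.53 was 1.47 without CA3 cell 8, where the call was lost, as it was without CA3 cell 10 at 4.91. Neurod6, detected in 5 of 5 CA3 cells and 4 of 16 cortical P cells, had 450, 68.6, 657, 678 and 11.7 CPM in CA3 cells 2, 8, 9, 10 and 21, and a median of 0 and a highest value of 617 CPM in cortical P cells. Its log2 ratio was 2.47, between 1.90 without CA3 cell 10 and 3.03 without CA3 cell 8. Neurod1 was high in CA3 cells 2 and 9 alone, at 879 and 480 CPM, and at 0 in the other CA3 cells, against a highest value of 286.3 CPM in cortical P cells. Its log2 ratio of 3.60 was 1.89 without CA3 cell 2. The Neurod1 call was lost there, without CA3 cell 9 (3.36) and among the cells of the later basecalling version alone (5.03).

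Of the 10 genes listed for the hippocampal formation, all of them measured, 2 were called higher (Zbtb20 and Neurod1) and 2 lower, and the list's median log2 ratio was 2.00, against -1.19 for all measured genes. The mineralocorticoid receptor Nr3c2 reached 779 CPM in CA3 cell 9 and was at 0 in the other CA3 cells, and no cortical P cell passed 2.08 CPM. As it was high in a single CA3 cell, it was not called. The homeobox factor Emx2 had 0 counts in CA3 and 49.3 CPM in cortical P cells, at least 451-fold lower in CA3 with a floor of 3 counts over the group. Of the Emx2 signal, most lay in cortical P cell 22, at 561 CPM. The proteoglycan Spock1 was at 35.95 CPM in CA3 and 171 CPM in cortical P cells, a log2 ratio of -2.22 that ran to -4.45 without CA3 cell 2 and was -1.16, no longer called, without cortical P cell 24.

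The CA3 label was checked with 15 field markers, of which 12 were measured. In CA3, 4 were called higher (Nnat, Npy2r, Cpne4 and Pvrl3) and 2 lower (Grik4 and Plagl1), and the median log2 ratio was 1.64. From 3 to 8 of the markers were detected in a CA3 cell and 0 to 6 in a cortical P cell. The summed level of the list was 1077 to 4466 CPM in CA3 cells and 0.979 to 5003 CPM in cortical P cells, with medians of 3755 and 221.7 CPM, so the groups overlapped. Against the 7 cortical P cells with fewer than 3 microglia markers, 4 of 9 measured markers were called higher (Nnat, Pvrl3, Cpne4 and Bok) and 1 lower (Grik4). Npy2r, Plagl1 and Rnf182 were not measured there, so the set differs. The median log2 ratio of 3.91 was the value of Homer3, which was not called. Homer3 had 199.6 CPM in CA3 cell 21 and at most 0.814 CPM in the other CA3 cells.

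Npy2r, a receptor for neuropeptide Y (chr3:82538383-82548989), had 1800.3 and 665 CPM in CA3 cells 2 and 9, 0 in CA3 cells 8, 10 and 21, and at most 0.653 CPM in any cortical P cell. It marked a subset of the CA3 cells, and its log2 ratio of 8.55 was 6.38 without CA3 cell 2. Cpne4, a calcium-dependent phospholipid-binding copine, was high in 3 of the 5, with 489, 0.298, 1027, 1871 and 0.510 CPM in CA3 cells 2, 8, 9, 10 and 21 and a highest value of 319 CPM in cortical P cells. Its CA1 level was 0.334 CPM, against 712 CPM in CA3 and 48.2 CPM in cortical P cells. Pvrl3, the nectin-3 adhesion molecule, had 33.6, 0, 212.4, 1977 and 1.53 CPM in CA3 cells 2, 8, 9, 10 and 21 and a highest value of 255.6 CPM in cortical P cells, with a log2 ratio of 6.07 that was 2.26 without CA3 cell 10. Nnat, the imprinted proteolipid neuronatin, had 1.02, 1611, 298, 97.5 and 564 CPM in the same order of cells, against a median of 0.105 CPM and a highest value of 296 CPM in cortical P cells. The Nnat log2 ratio of 4.11 was 1.98 without CA3 cell 8. No marker of the list was high in all 5 CA3 cells and absent from all cortical P cells.

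Grik4 went the other way. It encodes a high-affinity kainate receptor subunit that is a classical marker of CA3, and it was detected in 0 of 5 CA3 cells, at 0.610, 0, 6.10, 5.83 and 0 CPM in CA3 cells 2, 8, 9, 10 and 21. In cortical P cells its lowest value and median were 0 and its highest 450 CPM, in cell 15, with 11.3 CPM in the next cell. The groups overlapped, and the log2 ratio of -3.82 rested on cortical P cell 15, since without it the value was 0.82. Plagl1, an imprinted zinc finger factor, was called lower on cortical P cell 32 alone, with 142 CPM there, and had a log2 ratio of 1.23 without that cell. Among the uncalled markers, Dkk3 was detected in 4 of 5 CA3 cells and 5 of 16 cortical P cells (211.7 and 68.6 CPM), and Elavl2 in 5 of 5 and 7 of 16 (279 and 304 CPM). Of 6 measured CA1 markers 0 were called higher and 3 lower, and of 5 measured dentate granule markers 0 were higher and 3 lower. Over all measured genes 3.77% were higher and 45.6% lower, so these counts are no result about the neighbouring fields. The log2 ratio was above 0 for 2 of the CA1 markers and 1 of the dentate markers.

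**Figure D3:**
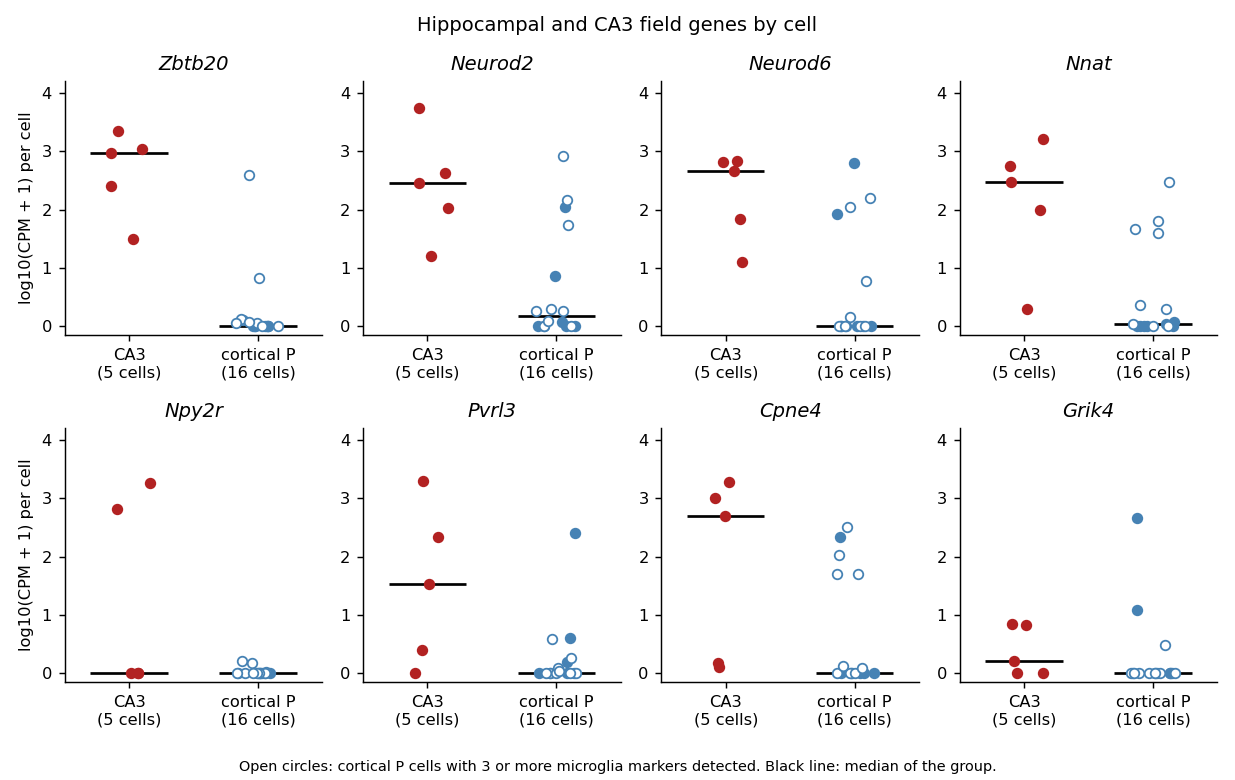
Each point is a cell, with its level on a log10(CPM + 1) axis, CA3 cells at the left in red and cortical P cells at the right in blue, and black lines mark group medians. Zbtb20, Neurod2 and Neurod6 had counts in all 5 CA3 cells, Npy2r, Pvrl3 and Cpne4 were high in some of them, and Grik4 reached 450 CPM in a cortical P cell but at most 6.10 CPM in CA3.

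Single genes of neocortical pyramidal identity were lower in CA3, while the counts over their list lay near those of all genes. Mef2c, a MADS-box factor of cortical excitatory neurons (chr13:83504017-83667079), had 0.610, 0.0992, 0, 11.7 and 0 CPM in CA3 cells 2, 8, 9, 10 and 21, against a median of 220 CPM and a highest value of 3672 CPM in cortical P cells. In 10 cortical P cells it lay above the highest CA3 cell. Summed, it stood at 3.35 CPM in CA3 and 1068 CPM in cortical P cells, a log2 ratio of -7.94. The chromatin organiser Satb1 was at 7.18 CPM in CA3, nearly all in cell 2, and 82.8 CPM in cortical P cells. Of 13 measured cortex-enriched pyramidal genes, 7 were called lower and 2 higher, with a median log2 ratio of -1.54, against 45.6% lower calls and a median of -1.19 over all measured genes. The 2 higher genes were Neurod6 and Arpp21, a cAMP-regulated phosphoprotein with 2462, 2336, 3380.3, 884 and 1417 CPM in CA3 cells 2, 8, 9, 10 and 21 against a median of 542 CPM and a highest value of 3042 CPM in cortical P cells. The groups overlapped, and the Arpp21 call was lost with any of several single cells left out. Its log2 ratio of 1.196 was short of the call among the cells of the later basecalling version alone, where it was 0.89.

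Upper layer markers were lower in CA3 for 8 of 11 measured genes and higher for 1, with a median log2 ratio of -2.68. Over all measured genes 45.6% were lower and the median was -1.19. The lower calls of Pou3f3, Unc5d, Cdh13 and Cux2 were each lost without a single cortical P cell (1, 5, 4 and 17). Their log2 ratios were then -0.20, -0.67, -0.92 and -1.72. Against the 7 cortical P cells with fewer than 3 microglia markers, 6 of 8 measured genes were lower, and Rasgrf2 was no longer called, at 0.23. Lamp5, a lysosome-associated membrane protein of superficial neurons, had 1 count in CA3, in cell 9, and 57.5 CPM in cortical P cells, where 6 cells had it detected and cell 22 held 515 CPM. Pou3f2, the POU factor Brn2, had 0 counts in CA3 and 480 CPM in cortical P cells. Most of that level was the 4417 CPM of cortical P cell 15, and without that cell the log2 ratio was -5.15 in place of -8.91. The nuclear receptor Rorb, a marker of layer 4 neurons, was at 0.255 CPM in CA3 and 16.9 CPM in cortical P cells, with a highest value of 205 CPM in cell 1. The homeobox factor Cux2 was at 0.328 CPM in CA3 and 4.40 CPM in cortical P cells. Mdga1, a GPI-anchored adhesion protein, was the exception, at 212.1 and 596 CPM in CA3 cells 2 and 21, 0 in the other CA3 cells and at most 0.185 CPM in any cortical P cell.

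Deep layer markers were mixed, with 7 of 16 measured genes called lower, 2 higher and a median log2 ratio of -0.28, above that of all measured genes. Against the 7 cortical P cells with fewer than 3 microglia markers, 5 of 13 measured deep layer markers were called higher and 4 lower, with a median log2 ratio of 2.24, so no direction is drawn for the list. Fezf2, a zinc finger factor of subcerebral projection neurons, was at 0.583 CPM in CA3, where no cell passed 2.55 CPM, and at 117.5 CPM in cortical P cells, where cell 20 held 1987 CPM. Tbr1, a T-box factor of corticothalamic neurons, had 3 counts in CA3 (0.109 CPM, interval 0.0225 to 0.319) and 130.2 CPM in cortical P cells, where cell 17 held 1079.7 CPM. Crym, a thyroid hormone-binding crystallin, was at 0.146 CPM in CA3 and 96.9 CPM in cortical P cells, 5 of which had it detected. Rprm, a cell cycle gene marking layer 6, was at 0.364 CPM in CA3 and 1181 CPM in cortical P cells, nearly all from cell 14, and its log2 ratio of -9.76 was -1.30 without that cell. Foxp2 and Sox5 were lower at log2 ratios of -3.26 and -1.50. Foxp2 was no longer called without cortical P cell 5, at -1.03, nor Sox5 without cell 4, at -0.90. Hs3st4, a heparan sulfate sulfotransferase, was called higher, with 258, 0.0992, 970, 3.31 and 595 CPM in CA3 cells 2, 8, 9, 10 and 21 and a highest value of 241.5 CPM in cortical P cells. The orphan nuclear receptor Nr4a2, which is also an immediate early gene, was higher at 21.02 CPM in CA3 and 0.334 CPM in cortical P cells, most of it from CA3 cell 21 (249 CPM), with a log2 ratio of 4.05 that was 1.75 without that cell. Bcl11b, a zinc finger factor of layer 5, reached 7619.7 CPM in CA3 cell 8 and at most 0.133 CPM in the other CA3 cells. In cortical P cells Bcl11b had a median of 0.285 CPM and a highest value of 2416 CPM, and it was not called.

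**Figure D4:**
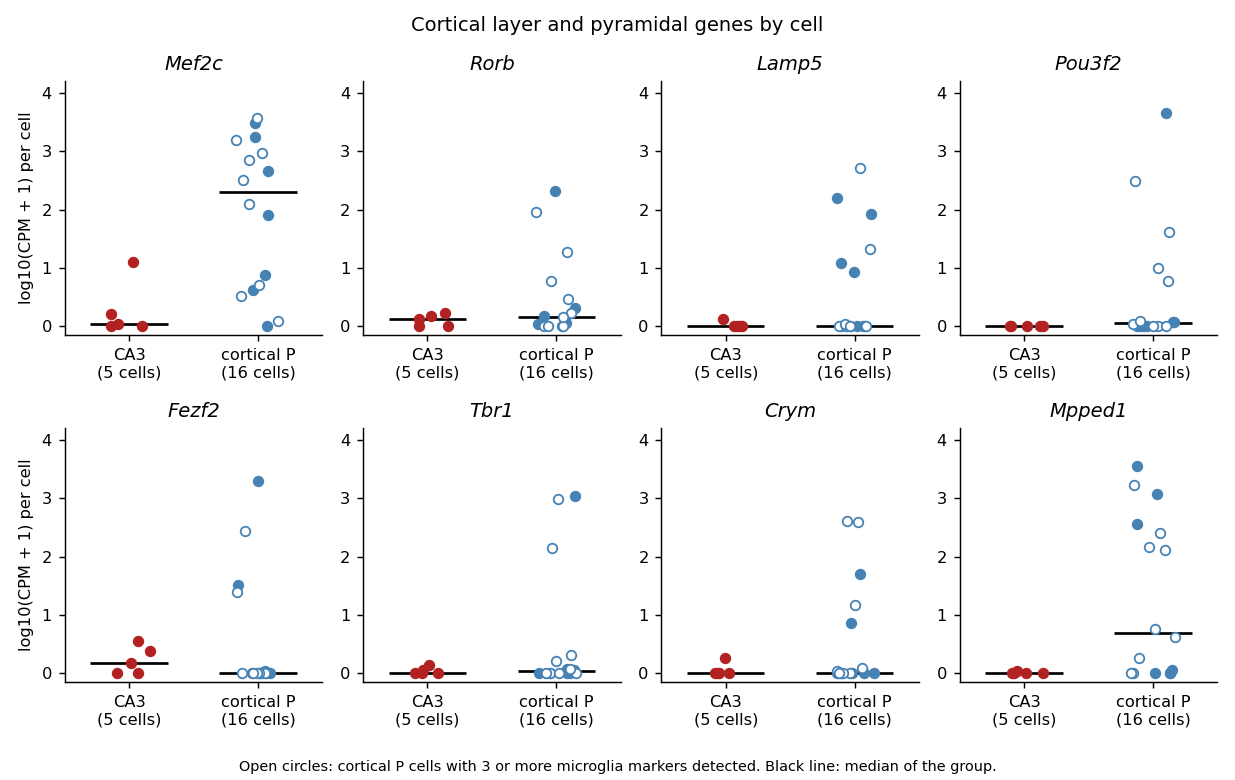
Each point is a cell on a log10(CPM + 1) axis, CA3 cells at the left and cortical P cells at the right, with open circles for cortical P cells in which at least 3 microglia markers were detected. The CA3 cells lie at or near 0 for Rorb, Lamp5, Pou3f2, Tbr1 and Mpped1, while Mef2c was above 11.7 CPM in 10 cortical P cells.

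The genes with the widest detection gap on the CA3 side went beyond field markers. Mndal, an interferon-inducible protein of the Ifi200 family (chr1:173857215-173880382), had 68.7, 17.7, 131, 810 and 53.6 CPM in CA3 cells 2, 8, 9, 10 and 21, and 1 count in all 16 cortical P cells together. The groups did not overlap, and the summed level was 259 CPM in CA3 and 0.00954 CPM in cortical P cells (interval 0.000241 to 0.0531). The CA1 level was 0.0128 CPM. The Ifi200 family holds near-identical neighbours whose reads the counting could have divided, so the identity of the Mndal signal is uncertain. Klf10, a TGF-beta-inducible Krüppel-like repressor (chr15:38291464-38300711), had 169, 6194, 462, 146 and 911 CPM in CA3 cells 2, 8, 9, 10 and 21, against a median of 0 and a highest value of 19.45 CPM in cortical P cells. Here too the groups did not overlap. The log2 ratio was 9.51, it was 6.44 without CA3 cell 8, and the CA1 level was 14.6 CPM.

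Sgk1, a kinase induced by glucocorticoids and serum, had 636, 401, 6277, 624 and 33.2 CPM in CA3 cells 2, 8, 9, 10 and 21, and a highest value of 329.2 CPM, in cell 33, in cortical P cells. All CA3 cells lay above 15 of the 16 cortical P cells. Nrip3, a nuclear receptor-interacting protein, was detected in 5 of 5 CA3 cells and 1 of 16 cortical P cells, at 456 and 39.4 CPM. Its log2 ratio of 3.50 was 8.37 without cortical P cell 22, which held 478 CPM, and its call was lost without CA3 cell 2 (2.44), without CA3 cell 9 (3.01) and among the cells of the later basecalling version alone (1.95). Pkp2, a desmosomal plakophilin, was detected in 4 of 5 CA3 cells, at 360 to 3375 CPM, and in 1 of 16 cortical P cells, at 97.8 CPM. The GATA-type repressor Trps1 was likewise detected in 4 of 5 CA3 cells and 1 of 16 cortical P cells, at 127 and 10.5 CPM. Both Pkp2 and Trps1 were at 0 in CA3 cell 8.

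The remaining leading genes on the CA3 side were Shisa6, described with the AMPA receptors, Tbce, Pmpca, Mirg and Dbc1. Tbce, a tubulin-folding cofactor, was detected in 5 of 5 CA3 cells and 5 of 16 cortical P cells, at 406 and 53.2 CPM. Pmpca, a subunit of the mitochondrial processing peptidase, was at 65.5 CPM in CA3 and 2.05 CPM in cortical P cells. Mirg, a noncoding transcript of the imprinted Dlk1-Dio3 locus, was at 385 CPM in CA3 and 3.48 CPM in cortical P cells, and its log2 ratio of 6.43 was 3.82 without CA3 cell 8. Dbc1 was at 1712 CPM in CA3 and 174 CPM in cortical P cells. The annotation overlaps Pmpca with Inpp5e, Tbce with B3galnt2 and Mirg with microRNA genes, and the strand setting of the counting is not given in the sources used here, so shared reads cannot be told apart. All 14 leading genes on this side were also called higher against the 7 cortical P cells with fewer than 3 microglia markers, and their log2 ratios there ran from 1.87 for Neurod6 to 10.1 for Zbtb20. Of all 394 higher calls 321 remained, and the share of genes called higher was 12.1% there against 3.77%. The 14 were chosen in cells that include these 7, so this is no independent check.

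Among the genes with the widest detection gap on the cortical side, several were neuronal signalling and adhesion genes. Adcy1, a calmodulin-stimulated adenylate cyclase (chr11:7063433-7178506), had 0, 0, 0, 1.59 and 0.510 CPM in CA3 cells 2, 8, 9, 10 and 21, against a median of 114.5 CPM and a highest value of 2509 CPM in cortical P cells. It was detected in 0 of 5 CA3 cells and 10 of 16 cortical P cells, and its CA1 level was 537 CPM. Negr1, a neuronal growth regulator of the IgLON family (chr3:156561790-157316464), had 0 counts in CA3 and 266 CPM in cortical P cells, at least 2433-fold lower, and was detected in 10 of 16 cortical P cells. Its highest cortical P value was 1345 CPM, in cell 17, and its CA1 level was 146 CPM. Mpped1, a metallophosphoesterase known as a CA1 marker, had 1 count in CA3 and 587 CPM in cortical P cells, 8 of which had it detected, and 396 CPM in CA1. The receptor tyrosine phosphatase Ptprf was at 0.291 CPM in CA3 and 405 CPM in cortical P cells, and the F-BAR protein Fnbp1l at 0.0364 and 435 CPM.

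Genes of wider expression were on that side too. Dmtf1, a Myb-like factor that binds cyclin D (chr5:9118868-9161806), had 0 counts in CA3 and 629 CPM in cortical P cells, at least 5759-fold lower. Most of that was the 5091 CPM of cortical P cell 15, without which the log2 ratio was -6.96 in place of -9.30. Ppp1ca, a catalytic subunit of protein phosphatase 1, had 1 count in CA3 and 218.8 CPM in cortical P cells. The mitochondrial channel Vdac2 was at 0.401 CPM in CA3 and 442 CPM in cortical P cells. Dmtf1, Ppp1ca and Vdac2 overlap Tmem243, Rad9a and Comtd1 in the annotation. Eef1b2, a translation elongation factor, was at 0.255 CPM in CA3 and 2347 CPM in cortical P cells, and the ribosomal genes Rplp0 and Rpl22l1 at 24.7 and 1079.5 CPM and at 0.146 and 376 CPM. Eef1b2, Rplp0 and Rpl22l1 have processed pseudogene copies, so their counts are uncertain. Against the 7 cortical P cells with fewer than 3 microglia markers the log2 ratio of Eef1b2 was -7.16 in place of -10.9, that of Ppp1ca -4.71 in place of -7.73, and that of Vdac2 -3.93 in place of -8.31.

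Glul, Enpp2 and Lrp1 are known from glia as well as from neurons. Glul, the glutamine synthetase of astrocytes (chr1:153899929-153909723), had 4.37 CPM in CA3 cell 8 and 0 in the other 4 CA3 cells, against a median of 149 CPM and a highest value of 8144 CPM in cortical P cells, 11 of which had it detected. Enpp2, the lysophospholipase D autotaxin, had 2 counts in CA3 and 435 CPM in cortical P cells. The lipoprotein receptor Lrp1 was at 0.692 CPM in CA3 and 79.6 CPM in cortical P cells. Of 17 measured astrocyte markers 11 were called lower, 0 higher and 6 not called, with a median log2 ratio of -3.69 and 4 ratios above 0. The share of lower calls over all measured genes was 45.6%. The summed astrocyte level per cell ran from 660 to 10611 CPM in CA3 and from 4.12 to 95686 CPM in cortical P cells, with medians of 5527 and 4810.2 CPM. Against the 7 cortical P cells with fewer than 3 microglia markers the astrocyte median was -0.32, and Glul stood at -6.62. All 14 leading genes on the cortical side were called lower there as well, while of all 4764 lower calls 2002 remained. The 14 were chosen in cells that include these 7, so this is no independent check either. The part of glial RNA in the lower levels of other genes was not tested beyond these values.

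Microglia markers were lower in CA3 for 11 of 12 measured genes, with a median log2 ratio of -7.77. The fractalkine receptor Cx3cr1 had 1 count in CA3 and 516 CPM in cortical P cells, Trem2 had 0 counts and 389 CPM, and Aif1 1 count and 740 CPM. Oligodendrocyte markers were lower for 5 of 6 measured genes. Inhibitory neuron markers were lower for 5 of 9 measured genes, and the calls of Gad1 and Gad2 rested on cortical P cell 22, without which their log2 ratios were -0.41 and -0.51. Of the 3 measured markers of oligodendrocyte precursors 2 were lower, and of the 2 measured endothelial and mural markers 1 was lower. Over all measured genes 45.6% were lower, and the inhibitory, precursor and endothelial counts are no result about those small lists.

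**Figure D5:**
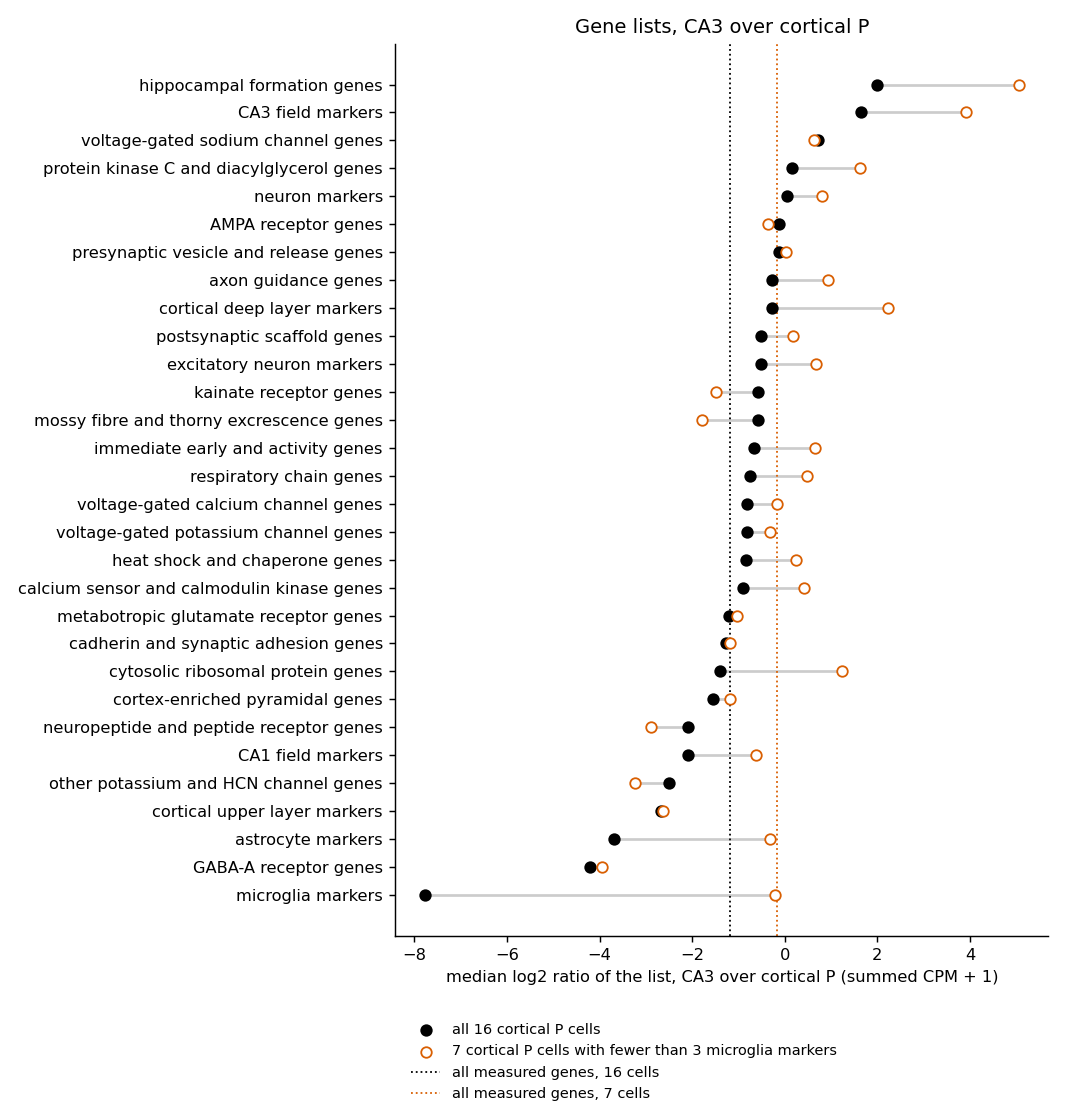
For each gene list with at least 5 measured genes, the median log2 ratio of CA3 over cortical P is drawn against all 16 cortical P cells (filled) and against the 7 with fewer than 3 microglia markers (open), with dotted lines for the median of all measured genes in each. Hippocampal and CA3 field lists lie at the top in both, and the microglia list lies at -7.77 against all 16 and at -0.21 against the 7.

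Ionotropic glutamate receptors differed by subunit. Gria2, the AMPA receptor subunit that limits calcium entry (chr3:80681450-80804227), had 7686, 3049, 4642, 9499 and 18149 CPM in CA3 cells 2, 8, 9, 10 and 21, against a median of 1241 CPM and a highest value of 4868 CPM in cortical P cells. In 14 cortical P cells the level lay below the lowest CA3 cell, and the log2 ratio was 2.10, between 1.88 and 2.51 with a CA3 cell left out. Shisa6, an auxiliary protein of AMPA receptors (chr11:66211725-66527984), had 1262, 4.86, 23.4, 0 and 29.1 CPM in CA3 cells 2, 8, 9, 10 and 21 and 4 counts in all cortical P cells together. The Shisa6 log2 ratio of 7.81 was 3.08 without CA3 cell 2, and the CA1 level was 98.9 CPM. Gria4 was at 0.328 CPM in CA3 and 655 CPM in cortical P cells, where cell 24 held 8512 CPM, and its log2 ratio of -8.95 was -5.94 without that cell. The cornichon Cnih3 had 0 counts in CA3 and 5.67 CPM in cortical P cells. In all, 2 of 11 measured AMPA receptor genes were called higher and 4 lower, with a median log2 ratio of -0.13, which was -0.37 against the 7 cortical P cells. Shares over all measured genes were 3.77% higher and 45.6% lower.

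Neto2, an auxiliary subunit of kainate receptors (chr8:85636718-85700952), had 518, 0, 0, 450 and 102 CPM in CA3 cells 2, 8, 9, 10 and 21 and at most 2.92 CPM in any cortical P cell. It was the only kainate receptor gene called higher, with a log2 ratio of 7.54. Of the 7 genes of that list, Grik4 and Grik3 were called lower, and Grik3 rested on cortical P cell 4, without which its log2 ratio was -0.50. Grik2 (14.6 and 19.9 CPM), Grik5 (6.41 and 10.0 CPM), Neto1 (45.2 and 61.4 CPM) and Grik1 (0 and 0.868 CPM in CA3 and cortical P cells) were not called. Of 5 measured NMDA receptor genes, 0 were higher and 1 was lower (Grin3a, which rested on cortical P cell 1). Of the metabotropic receptors 4 of 9 measured genes were lower and 0 higher, a share of lower calls near the 45.6% of all measured genes. Grm5, a group I receptor coupled to calcium release, had 616, 264.8, 487, 0.398 and 79.1 CPM in CA3 cells 2, 8, 9, 10 and 21, against a median of 1116 CPM and a highest value of 6698 CPM in cortical P cells. In 9 cortical P cells Grm5 lay above the highest CA3 cell, and the log2 ratio was -2.67. Grm2, Grm3 and Grm8, which couple to inhibitory G proteins, had 0 counts in CA3 and 4.81, 13.1 and 43.6 CPM in cortical P cells.

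GABA-A receptor and gephyrin genes were lower in CA3 for 7 of 12 measured members and higher for 0, against 45.6% and 3.77% of all measured genes. Their median log2 ratio of -4.20 lay below that of every other list but the microglia markers. The receptor subunit Gabrb2 had 1 count in CA3 and 72.5 CPM in cortical P cells, 6 of which had it detected, at up to 392 CPM. Gabra3 had 1 count in CA3 and 148 CPM in cortical P cells. Gabrb1 was at 14.8 CPM in CA3, with 101 CPM in cell 9, and at 161 CPM in cortical P cells. Gphn, the scaffold of inhibitory synapses, had 3 counts in CA3 and 38.9 CPM in cortical P cells. Against the 7 cortical P cells with fewer than 3 microglia markers the median was -3.94, with 6 of 9 measured genes lower and 1 higher.

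Voltage-gated potassium channel genes were called higher in 4 and lower in 12 of 29 measured cases, with a median log2 ratio of -0.81. Over all measured genes 3.77% were higher and 45.6% lower, so the lower calls are no result about the list. Kcna1, a delayed rectifier of axons, had 177, 0, 12.5, 1036 and 1437 CPM in CA3 cells 2, 8, 9, 10 and 21, against a median of 0.208 CPM and a highest value of 361.9 CPM in cortical P cells. Its log2 ratio of 2.53 was 1.37 without CA3 cell 10. Kcnip1, an A-type channel partner, was at 15.4 CPM in CA3, in cells 8 and 21 alone, and 0.105 CPM in cortical P cells. Kcnf1, a silent subunit, was at 0.838 CPM in CA3 and 49.7 CPM in cortical P cells, and Dpp10, another A-type partner, at 10.3 and 87.7 CPM. The Dpp10 call was lost against the 7 cortical P cells with fewer than 3 microglia markers, at a log2 ratio of -1.10. Of the other potassium and HCN channel genes 10 of 17 were lower and 0 higher, among them the sodium-activated channel Kcnt1 (1 count in CA3, 52.5 CPM in cortical P cells) and the inward rectifier Kcnj4, whose 88.6 CPM in cortical P cells came mostly from cell 20 and whose log2 ratio of -6.49 was -1.18, no longer called, without it.

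Among sodium channel genes, 1 of 12 was higher and 3 were lower, and the median log2 ratio of 0.71 lay above that of all measured genes. The auxiliary subunit Scn3b was higher, with 2051 CPM in CA3 cell 21 and 0.678 to 29.2 CPM in the other CA3 cells, and its log2 ratio of 5.30 was 1.68 without cell 21. The leak channel Nalcn was lower, at 2.37 CPM in CA3 and 65.97 CPM in cortical P cells. Among calcium channel genes, 1 of 17 was higher and 7 were lower, a share of lower calls near the 45.6% of all measured genes. The T-type channels Cacna1g and Cacna1h were at 0.219 and 0.146 CPM in CA3, against 123.9 and 81.5 CPM in cortical P cells. The L-type channel Cacna1d was the higher one, at 40.7 CPM in CA3, from cells 2 and 21, and 3.13 CPM in cortical P cells.

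Among kinase C and diacylglycerol signalling genes, Rasgrp1 and Prkce were higher in CA3. Rasgrp1, a diacylglycerol-activated exchange factor for Ras (chr2:117279983-117342877), had 961, 3252, 2182, 1222 and 277 CPM in CA3 cells 2, 8, 9, 10 and 21, against a median of 33.1 CPM and a highest value of 816 CPM in cortical P cells. In 4 CA3 cells Rasgrp1 lay above every cortical P cell, and the log2 ratio of 3.00 stayed between 2.30 and 3.19 with a CA3 cell left out. Prkce, the epsilon isoform of protein kinase C, was detected in 5 of 5 CA3 cells and 9 of 16 cortical P cells, at 1904 and 456 CPM, with a log2 ratio of 2.06 (1.29 without CA3 cell 8). Of the 14 measured genes of the list 2 were higher and 6 lower, with a median log2 ratio of 0.16, which was 1.62 against the 7 cortical P cells. The share of lower calls was near the 45.6% of all measured genes. Necab2, a neuronal calcium-binding protein, was at 834 and 517 CPM in CA3 cells 8 and 21, 0 in the other CA3 cells and at most 16.3 CPM in cortical P cells.

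Neuropeptide genes gave 2 higher and 9 lower calls among 18 measured, a share of lower calls near the 45.6% of all measured genes. Cck, the peptide cholecystokinin, had 1098, 0, 2669.8, 979 and 1949.5 CPM in CA3 cells 2, 8, 9, 10 and 21, against a median of 0.384 CPM and a highest value of 1579 CPM in cortical P cells. Its log2 ratio of 1.51 was at least 1.12 with a CA3 cell left out, but the call was lost against the 7 cortical P cells with fewer than 3 microglia markers, where the ratio was 1.24. Its receptor Cckbr was on the other side, at 0.583 CPM in CA3 and 204 CPM in cortical P cells, 7 of which had it detected. The neuropeptide Y receptors were split likewise, Npy2r being higher in CA3 and Npy1r having 0 counts there and 41.2 CPM in cortical P cells, at least 377-fold lower.

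Axon guidance genes gave 7 higher and 15 lower calls among 40 measured, beside 3.77% and 45.6% of all measured genes. Their median log2 ratio was -0.27, which was 0.92 against the 7 cortical P cells with fewer than 3 microglia markers. Nrp1, a receptor for class 3 semaphorins (chr8:128358591-128505476), had 1792, 0.695, 2532, 2694 and 67.4 CPM in CA3 cells 2, 8, 9, 10 and 21, against a median of 0.430 CPM and a highest value of 1118 CPM in cortical P cells. In the 7 cortical P cells with fewer than 3 microglia markers Nrp1 was at 0.180 CPM. The ephrin receptors Epha3 and Epha7 were higher at log2 ratios of 7.21 and 2.83. Epha3 came from CA3 cells 9 and 10 (1289.9 and 453 CPM), and Epha7 from CA3 cells 9, 10 and 21, with its call lost against the 7 cortical P cells, at 2.06. The netrin receptor Dcc was at 389 and 165 CPM in CA3 cells 2 and 9 and at most 0.741 CPM in any cortical P cell. Cadherin and synaptic adhesion genes gave 0 higher and 18 lower calls among 40 measured, a share of lower calls near the 45.6% of all measured genes. Flrt2, a ligand of latrophilins and Unc5 receptors, was at 0.364 CPM in CA3 and 742 CPM in cortical P cells, where cell 24 held 8731 CPM, and its log2 ratio of -9.09 was -6.86 without that cell. The N-cadherin gene Cdh2 had 1 count in CA3 and 25.3 CPM in cortical P cells, and the teneurins Tenm3 and Tenm4 were at 0.0729 and 1.89 CPM in CA3, against 18.0 and 49.9 CPM in cortical P cells.

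Presynaptic genes gave 3 higher and 8 lower calls among 33 measured, with a median log2 ratio of -0.13. The calcium sensor Syt7 was detected in 5 of 5 CA3 cells and 12 of 16 cortical P cells, at 1145 and 311 CPM. It lay close to the 2-fold limit without CA3 cell 8, at a log2 ratio of 1.05, and it was not called against the 7 cortical P cells with fewer than 3 microglia markers, at 0.90. Vamp1, a vesicle SNARE, was at 168, 420 and 393 CPM in CA3 cells 8, 9 and 10 and 0 in the other CA3 cells, and among cortical P cells it passed 0.672 CPM in cell 19 alone (241.02 CPM). Rims2, a scaffold of the release site, was lower, at 0.510 CPM in CA3 and 23.7 CPM in cortical P cells. Of 15 measured mossy fibre and thorny excrescence genes, 1 was higher (Pvrl3) and 6 were lower, with a median log2 ratio of -0.57. The shares over all measured genes were 3.77% higher and 45.6% lower.

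Most genes of the housekeeping groups were called lower or not called. Cytosolic ribosomal protein genes were lower in 12 of 25 cases and higher in 0, with a median log2 ratio of -1.39, near that of all measured genes. Respiratory chain genes were lower in 13 and higher in 2 of 33 cases, at a median of -0.74. Both medians turned against the 7 cortical P cells with fewer than 3 microglia markers, to 1.23 for the ribosomal list (4 higher and 4 lower of 24) and 0.48 for the respiratory list (5 higher and 10 lower of 33), so no direction is drawn for either. Ndufb5, a subunit of complex I, was the higher one of widest detection, in 4 of 5 CA3 cells and 5 of 16 cortical P cells, at 1495 and 113.03 CPM, though its log2 ratio of 3.71 was 1.13 without CA3 cell 8. Immediate early genes gave 1 higher and 6 lower calls among 18 measured. Nr4a1 was at 2.66 CPM in CA3 and 32.8 CPM in cortical P cells, while Fos and Egr1 were not called. Heat shock genes gave 1 higher and 4 lower calls among 15 measured, postsynaptic scaffold genes 1 and 6 among 20, and calcium sensor and calmodulin kinase genes 1 and 8 among 29. All these counts stand beside 3.77% higher and 45.6% lower calls over all measured genes.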

How the data were processed

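The deposited table held raw counts of reads per gene for 21956 gene rows and 158 libraries, with no normalization by the authors. Per the submitters' processing notes, base calls were converted with bcl2fastq 1.8.4 or bcl2fastq2 2.17, reads were aligned with STAR and counted with HTSeq, and the builds named were mm10 and GRCm38. Strand setting, annotation and aligner and counter versions were not given in the sources used here. Gene names turned into dates (27 rows) stayed in the totals and were not named.

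Repeat libraries were summed per cell. Counts were processed with Python 3.11.15, pandas 2.3.3 and scipy 1.17.1. Thinning to 1000000 counts used seed 7. The call rule was checked on simulated counts with known fold changes. Measured genes, calls and floors are defined with the results. CA3 cell 2 and 5 cortical P cells had basecalling version 1.8.4, so version 2.17 was also analysed alone (4 and 12 cells, 1 cortical P cell having libraries of both). TMM factors came from edgeR 4.0.16 and size factors from DESeq2 1.42.0. Alternatives changed scaling, pseudocount, filters and the cells kept, and left out each cell in turn.

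Genes named were, per direction, the 14 called genes with the largest difference in detection among those with at least 10 CPM in a group and the same direction within version 2.17, predicted genes passed over. Up to 4 called members of each of 36 lists were also named, and every measured member of the CA3 field, hippocampal, cortical layer and kainate receptor lists could be; 4 of these genes are not reported here. Slc17a7, Nrgn, Camk2a, Fos and Egr1 were named as marker or activity genes after their values were seen. The comparison, its lists and its rules were chosen with earlier results of these data known. Of 678 list entries 675 had a row. Coordinates are from RefSeq (GRCm38.p6), which matched 548 of 549 genes looked up.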

Additional observations from a re-analysis of the deposited data

Results flagged for a closer look

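In the 14 leading genes per direction, the values of the 5 CA3 cells were searched for a cell far from the other 4, and 11 genes had one. Chance alone gives such a cell in about 1 of 20 groups, and a group in which a single cell has any count always gives one. In 7 genes the lone cell was the only CA3 cell with a count. These were Glul in cell 8 (4.37 CPM), Eef1b2 in cell 2 (1.42 CPM), Enpp2 in cell 21 (1.02 CPM), Ppp1ca in cell 9 (0.339 CPM), Mpped1 in cell 8 (0.0992 CPM), Fnbp1l in cell 10 (0.133 CPM) and Rpl22l1 in cell 9 (1.36 CPM). Cell 9 also stood above the others for Rplp0 (227.7 CPM) and Vdac2 (3.05 CPM). Pkp2 and Trps1 were at 0 CPM in CA3 cell 8, while the other 4 CA3 cells had 360 to 3375 CPM of Pkp2 and 111.8 to 578 CPM of Trps1.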

How the results depend on the processing

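No paired analysis was possible because the calls come from no test and the cell numbers pair no cells across regions. The 394 higher and 4764 lower calls became 2455 higher with the mean of the cells' CPM alone, 2105 higher with the summed CPM alone, 620 higher with DESeq2 size factors, 825 higher and 2263 lower without the cells that had at least 3 microglia markers, and 171 higher and 966 lower among genes detected in at least 6 cells, an alternative chosen after seeing the data. The other settings kept both counts within 1.5 times. Leaving out a cell gave 274 to 509 higher and 4168 to 5165 lower calls. With each CA3 cell left out in turn, at least 216 of the 394 higher calls remained. These runs applied the whole rule again, which leaves out a further CA3 cell in turn. Neurod1, Npy2r, Pvrl3, Mdga1, Nr4a2, Dcc, Epha3, Epha7 and Necab2 lost their higher call in some of them. So did Kcna1, Kcnip1, Scn3b, Cacna1d, Prkce, Cck, Syt7 and Ndufb5.

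Directions turned for single genes and for list medians. Against the cells without the microglia-marked ones 10 list medians changed sign, with DESeq2 size factors 7, with edgeR TMM scaling 3, with the mean of the cells' CPM alone 2 and among genes detected in at least 6 cells 7. The 10 became 2.24 for deep layer, 0.67 for excitatory, 0.41 for calcium sensor, 0.92 for axon guidance, 0.031 for presynaptic, 0.18 for postsynaptic, 0.65 for immediate early, 0.25 for heat shock, 0.48 for respiratory and 1.23 for ribosomal genes, while the median of all measured genes was -0.17. Log2 ratios became 1.21 (later basecalling version alone) and 0.17 (microglia-marked cells out) for Nefh, 0.68 (cells with Gad1 or Gad2 out) and 0.61 (microglia-marked out) for Ctgf, and 1.40 and 1.38 in the same 2 settings for Scn4b. Without the microglia-marked cells they were 0.23 for Rasgrf2, 0.34 for Gja1 and 1.74 for Ctss. Plagl1 was at 1.23 without cells richer in astrocyte than neuron markers and 1.22 without cells of under 1000 genes, where Grik4 was at 0.63, Syp at 0.018 and Shank3 at 1.90. The neuropeptide median was 0.18 among genes detected in at least 6 cells. Leaving out 1 cell, the log2 ratios ran over -3.31 to 0.68 for Nefh, -4.54 to 0.82 for Grik4, -3.60 to 0.70 for Ctgf, -5.52 to 1.41 for Scn4b, -5.31 to 0.34 for Syp and -3.09 to 1.23 for Plagl1. The cause was not tested, but the turned values without a single cell each rest on that cell (cortical P cells 2, 15, 22, 22, 24 and 32 in the order named). With 27452025 counts in CA3, 3 counts are 0.109 CPM. That floor covers counting alone, and whether depth per cell or the number of cells limits the precision was not tested.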
